A study of Canis lupus familiaris with 12 samples.

Results

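The exosome table of this series lists 143 entries that carry no miRNA name and are written novel_ followed by a number from 1 to 143. They were taken by that spelling alone, and they are 143 of the 321 listed entries; the other 178 carry a dog miRNA name. Beagles had received rapid atrial pacing for 2 weeks, in which an electrode makes the atria beat fast, or a sham operation. Exosomes from the epicardial fat of the left atrium gave 3 miRNA-seq libraries in the pacing arm and 3 in the sham arm. No other allele, agent or age is given, nor whether each sample came from a separate dog, so p-values measure only the spread between these samples. The series also holds hippocampal samples, whose gene table holds no such entry and was not used here.

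MicroRNAs are short RNAs cut from hairpin precursors that pair with messenger RNAs through their seed and lower their output. Exosomes are vesicles that cells release and that carry such RNAs in fat, blood and other tissues. A numbered entry in a table of this kind is usually a candidate miRNA, predicted from reads that stack on a genomic site whose flanks can fold into a hairpin. A candidate receives a database name only after further evidence. The files pair the 143 numbers with no sequence, position or precursor, so what each entry is cannot be checked here and no function is given to any of them.

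The libraries had few listed reads, 12159 to 16114 in pacing and 12767 to 25171 in sham, with the most in sham replicate 2. Listed reads are those of the listed entries only and need not follow sequencing depth. One read was worth 39.7 to 82.2 RPM, which are reads scaled to a common total. Intervals below cover counting error only. Libraries of 1 arm differed beyond sampling noise over the numbered entries in every pair (chi-square from 95.6 to 202 for each degree of freedom). Of 8 miRNAs associated with fat, 6 were matched, and their summed level was 9832 to 18176 RPM in pacing and 12105 to 25943 RPM in sham. Most of that sum was miR-143, with a mean of 9260 RPM in pacing and 10817 RPM in sham, and miR-193b and miR-196a were not listed. The endothelial miR-126 stood at 4405 to 9309 RPM in pacing and 5170 to 17083 RPM in sham. Muscle miRNAs were matched for 6 of 7 and summed to 62.1 to 787 RPM in pacing and 313 to 1470 RPM in sham. None of them had more than 4 reads in a pacing library or 20 in a sham library, and their arm means went in both directions. The sums were 372 to 822 RPM in pacing and 68 to 477 RPM in sham for 3 of 3 erythrocyte miRNAs. For 4 of 4 leukocyte miRNAs they were 1398 to 3146 RPM in pacing and 544 to 3139 RPM in sham. The liver miRNA miR-122 stood at 393 to 576 RPM in pacing and 272 to 940 RPM in sham. Of 2 neuronal miRNAs miR-9 was matched, at 1862 to 11596 RPM in pacing and 2244 to 7049 RPM in sham. Their part in the results below was not tested.

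Numbered entries took a large and uneven share of the listed reads. They held 41614 of 93629 reads over the 6 libraries, or 44.4%. In pacing they made up 40.9% of listed reads in replicate 1 (95% Wilson interval 40.05 to 41.79), 60.6% in replicate 2 (59.8 to 61.4) and 47.0% in replicate 3 (46.3 to 47.8). In sham they made up 63.5% in replicate 1 (62.8 to 64.3), 22.7% in replicate 2 (22.2 to 23.3) and 49.3% in replicate 3 (48.4 to 50.1). The arms overlapped, and both the highest and the lowest share lay in sham. In bulk vesicle RNA, fewer vesicles from a source and less RNA in each vesicle cannot be told apart. The mean share was 49.5 ± 10.1% (SD, n = 3) in pacing and 45.2 ± 20.7% (SD, n = 3) in sham. The difference of 4.35 percentage points was smaller than the spread between libraries (exact permutation test, two-sided, p = 0.9, where 3 against 3 cannot go below 0.1; adjusted p = 0.9 over 4 such comparisons). It turned to -1.19 points without pacing replicate 2 and to -6.87 points without sham replicate 2. In absolute numbers, sham replicate 2 listed 5723 numbered and 19448 named reads, while in the other 5 libraries numbered reads ran from 4975 to 9342 and named reads from 5009 to 8533.

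**Figure D1:**
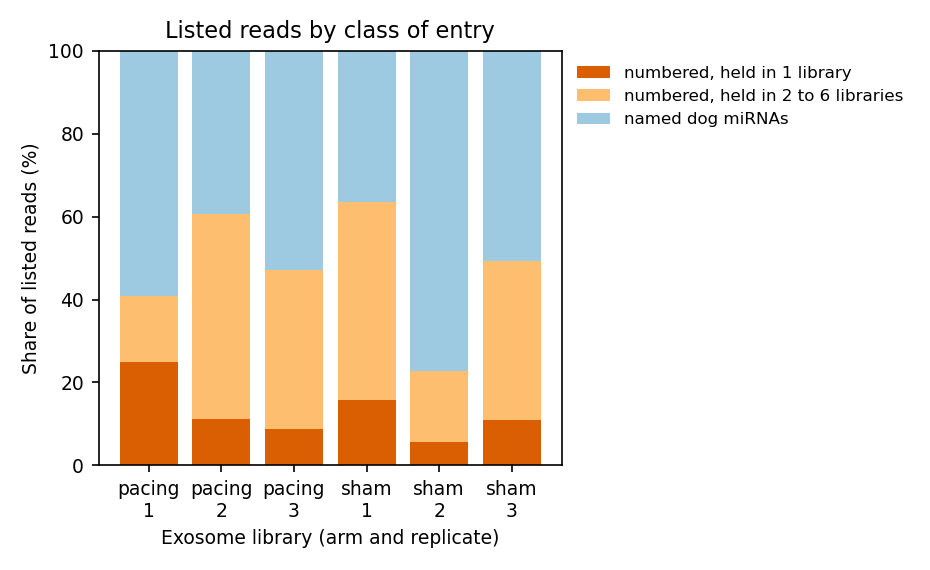
Share of the listed reads of each exosome library (%, vertical axis) held by numbered entries found in 1 library, by numbered entries found in 2 to 6 libraries and by named dog miRNAs, with the 3 pacing libraries left of the 3 sham libraries. The numbered share (both orange parts) is lowest at 22.7% in sham replicate 2 and highest at 63.5% in sham replicate 1.

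Low values were listed differently for the 2 kinds of entry. The lowest listed value of a numbered entry was 10, 9 and 10 reads in pacing replicates 1, 2 and 3 and 7, 6 and 8 reads in sham replicates 1, 2 and 3, against 1 read for named miRNAs in every library. Of 244 values above 0 for numbered entries, 9 lay under 10 reads, against 448 of 764 for named miRNAs. A numbered entry listed at 0 may therefore have had a few reads, and no fold change or upper limit is given against a value of 0. Zeros made up 71.6% of the numbered values (614 of 858) and 28.5% of the named values (304 of 1068).

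Most numbered entries were listed in a single library. Of the 143, 88 (61.5%) had reads in 1 library, 29 in 2, 14 in 3, 7 in 4, 2 in 5 and 3 in all 6. Named miRNAs showed the opposite profile, with 83 of 178 (46.6%) in all 6 libraries and 28 (15.7%) in 1. These counts take any listed read, and the lowest listed values of the classes differed as given above. The single-library class also carried weight among the numbered reads, at 26.5% of them, whereas the named miRNAs found in 1 library held 37 reads in all, or 0.0711% of named reads. Entries in 2 libraries held 36.9% of numbered reads, and those in all 6 held 10.7%, against 98.5% of named reads in named miRNAs found in all 6.

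More abundant numbered entries were listed in more libraries, but seldom in all 6, which differed from named miRNAs. Named miRNAs were counted from 1 read, whereas no numbered value lay under 6 reads, so the classes were counted at unlike limits. The part of that difference in the counts below was not tested. Among entries whose highest library listed 10 to 99 reads, 0 of 91 numbered entries and 48 of 56 named miRNAs were in all 6 libraries. From 100 reads to under 1000, 3 of 42 numbered entries and 19 of 19 named miRNAs were in all 6. At 1000 reads or more, 0 of 6 numbered entries and 5 of 5 named miRNAs were. The share of numbered entries listed in 1 library was 68.1% (62 of 91), 50% (21 of 42) and 16.7% (1 of 6) over these 3 classes, and their median number of libraries was 1, 1.5 and 2. Entries in 1 library had a median of 35.5 reads in all, and those in all 6 libraries 1794.

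**Figure D2:**
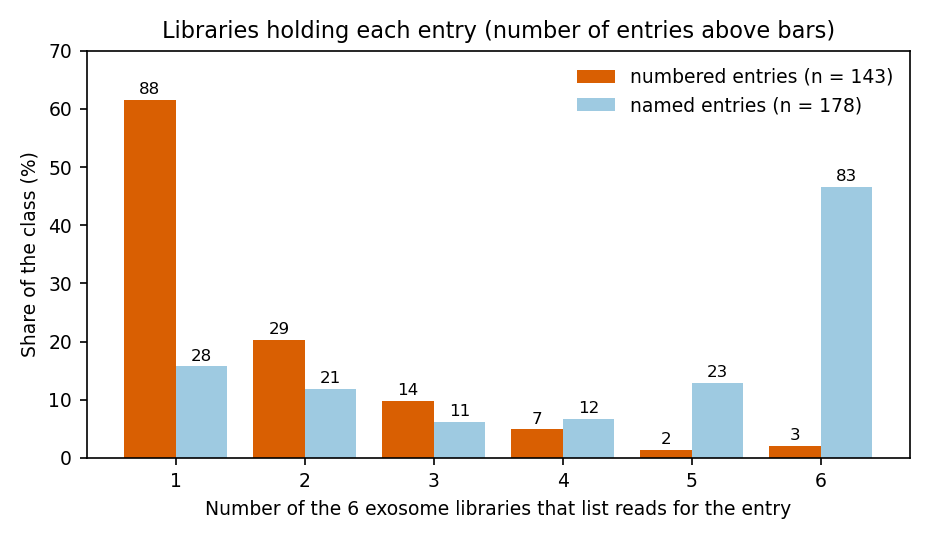
Share of the 143 numbered entries and of the 178 named entries (%, vertical axis) by the number of exosome libraries that list reads for them, with the number of entries above each bar. The numbered entries peak at 1 library (88 entries) and the named entries at 6 libraries (83 entries).

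The numbers themselves followed the order of the columns in the deposited table. All 39 entries held in pacing replicate 1 were numbered 1 to 39. Entries that were at 0 there and held in pacing replicate 2 were numbered 40 to 75 (36 entries). The next blocks were 76 to 93 for pacing replicate 3 (18 entries), 94 to 113 for sham replicate 1 (20 entries), 114 to 127 for sham replicate 2 (14 entries) and 128 to 143 for sham replicate 3 (16 entries). Each block was consecutive, with no exception among the 143. Within a block the number did not track abundance closely, with Spearman's rho between number and reads from -0.30 in the block of sham replicate 1 to -0.04 for the entries added by sham replicate 2, over 14 to 39 entries. The rho values describe entries of 1 library each and carry no test.

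**Figure D3:**
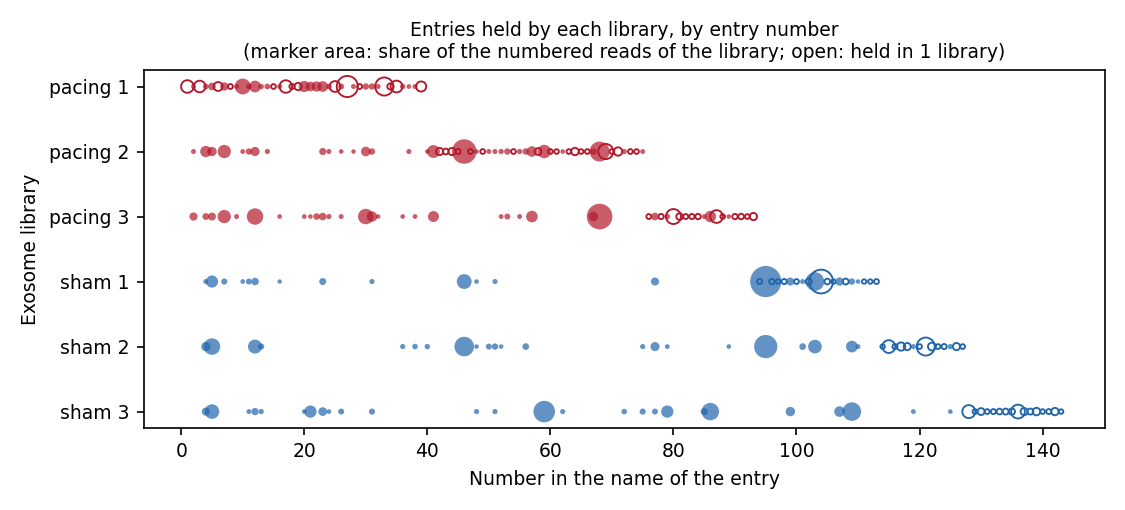
Entries held by each exosome library (vertical axis) against the number in their name (horizontal axis, 1 to 143), with marker area showing the share of the numbered reads of the library and open markers showing entries held in 1 library. Pacing replicate 1 holds numbers 1 to 39 alone, and each later library adds a new block of consecutive numbers.

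The count of numbered entries held was 39, 51 and 43 in pacing replicates 1, 2 and 3, against 33, 36 and 42 in sham replicates 1, 2 and 3. Sham replicate 3 lay above pacing replicate 1, so the arms overlapped. Thinned to 4975 numbered reads in each library, the count was 44.3 ± 6.11 (SD, n = 3) in pacing and 37.0 ± 4.59 (SD, n = 3) in sham (exact permutation test, two-sided, p = 0.2, adjusted p = 0.8). Thinning lost less than 1 entry in any library.

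Single entries dominated the numbered reads, and a different one led in most libraries. In pacing the leading entry was novel_27 in replicate 1 with 819 reads, 16.5% of the numbered reads there (95% Wilson interval 15.5 to 17.5). It was novel_46 in replicate 2 with 1722 reads, 22.3% (21.4 to 23.3), and novel_68 in replicate 3 with 1854 reads, 24.5% (23.5 to 25.4). In sham, novel_95 led replicate 1 with 3426 reads, 36.7% (35.7 to 37.7), and replicate 2 with 1149 reads, 20.1% (19.1 to 21.1). In sham replicate 3 novel_59 led with 1078 reads, 17.1% (16.2 to 18.1). The 6 libraries thus had 5 leading entries, and of these only novel_95 led in more than 1 library.

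In 3 libraries the leading numbered entry was the most abundant of all 321 entries. It exceeded the leading named miRNA, cfa-miR-199, 2.11-fold in pacing replicate 2, 1.14-fold in pacing replicate 3 and 2.82-fold in sham replicate 1. In sham replicate 1 novel_95 alone took 23.3% of all listed reads, or 232998 RPM. The leading numbered entry was at rank 4 of all entries in pacing replicate 1, at rank 6 in sham replicate 2 and at rank 2 in sham replicate 3. Among the 10 most abundant entries of each library, 3, 6 and 4 were numbered in pacing replicates 1, 2 and 3, against 5, 3 and 6 in sham replicates 1, 2 and 3.

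The reads were concentrated on few entries below the leader as well. The leading 3 entries held 37.4%, 45.0% and 42.8% of numbered reads in pacing replicates 1, 2 and 3, against 70.4%, 45.9% and 40.8% in sham replicates 1, 2 and 3. In sham replicate 1 these were novel_95, novel_104 (1964 reads) and novel_103 (1186 reads), and 2 entries were enough for 50% of the numbered reads. The other libraries needed 4 to 6 entries for 50% and 14 to 20 for 90%, where sham replicate 1 needed 9. The next places were held by novel_33 (594 reads) and novel_10 (450) in pacing replicate 1. They were held by novel_68 (1125) and novel_69 (624) in pacing replicate 2, and by novel_12 (737) and novel_30 (653) in pacing replicate 3. In sham replicate 2 they belonged to novel_46 (803) and novel_121 (675), and in sham replicate 3 to novel_109 (793) and novel_86 (693).

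**Figure D4:**
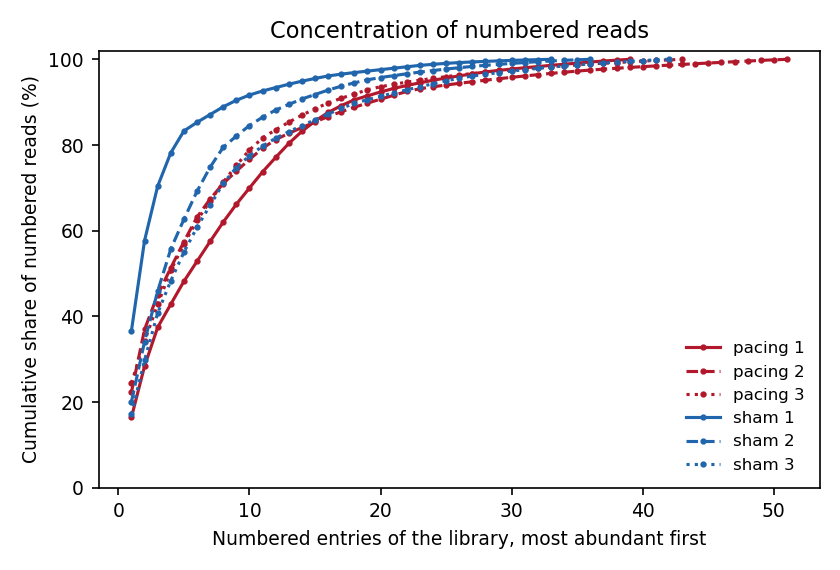
Cumulative share of the numbered reads (%, vertical axis) over the numbered entries of each library, most abundant first (horizontal axis), with pacing in red and sham in blue. Sham replicate 1 reaches 70.4% with 3 entries, and the other 5 libraries stand between 37.4% and 45.9% there.

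The share of the leading entry was 21.1 ± 4.14% (SD, n = 3) in pacing and 24.6 ± 10.5% (SD, n = 3) in sham, a difference of -3.54 points (exact permutation test, two-sided, p = 0.8, adjusted p = 0.9). Without sham replicate 1 the difference was 2.48 points. The effective number of entries, the inverse Simpson index that gives how many equally abundant entries would be as concentrated, was 14.0, 10.4 and 10.1 in pacing replicates 1, 2 and 3. It was 4.87, 9.92 and 12.4 in sham replicates 1, 2 and 3. The arms overlapped, and their means of 11.5 ± 2.20 (SD, n = 3) in pacing and 9.05 ± 3.82 (SD, n = 3) in sham were not told apart (exact permutation test, two-sided, p = 0.4, adjusted p = 0.8). Leaving out 1 library moved that difference of 2.45 to between 0.361 without sham replicate 1 and 4.11 without sham replicate 3.

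Set against the named miRNAs of the same libraries, the numbered entries were not shown to be more concentrated by the share of the leading entry or the inverse Simpson index. The leading numbered entry took 22.9 ± 7.42% of its class and the leading named miRNA 18.5 ± 2.72% (SD, n = 6), with the numbered share higher in 5 of 6 libraries (exact sign-flip test, two-sided, p = 0.125, adjusted p = 0.188 over 3 comparisons). The effective number was 10.3 ± 3.10 for numbered and 11.4 ± 1.25 for named entries (SD, n = 6), lower for numbered entries in 4 of 6 libraries (exact sign-flip test, p = 0.406, adjusted p = 0.406). Measured by the exponential of the Shannon entropy, which weighs rare entries more, it was 16.1 ± 4.33 for numbered and 21.7 ± 1.84 for named entries (SD, n = 6), a difference of -5.65 (exact sign-flip test, unadjusted p = 0.03125, the smallest that 6 libraries allow). With 10 reads required of both classes, which sets aside the different lowest listed values, that difference was -2.18 (exact sign-flip test, unadjusted p = 0.375).

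At 4975 reads a class, 40.7 ± 6.28 numbered and 117 ± 5.24 named entries had reads (SD, n = 6). The named count was higher in 6 of 6 libraries (exact sign-flip test, p = 0.03125, adjusted p = 0.0938). Before thinning, 50 to 82 named entries of a library lay under its lowest numbered value. This test therefore cannot separate the classes from the unlike limits at which they were listed. As shares of the entries of each class the counts at 4975 reads were 28.4% for numbered and 65.6% for named entries, a difference of -37.1 percentage points. With 10 reads required of both classes and no thinning, 39.2 ± 7.36 numbered and 52.7 ± 13.6 named entries were held (SD, n = 6), a difference of -13.5 entries with the named count higher in 5 of 6 libraries (exact sign-flip test, unadjusted p = 0.09375). As shares of each class those counts were 27.4% for numbered and 29.6% for named entries, a difference of -2.20 points (exact sign-flip test, unadjusted p = 0.75). The comparisons with 10 reads required and those by share of class were chosen after the data were seen.

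Entries held in 1 library only were found in each of the 6 libraries, 15, 19 and 13 of them in pacing replicates 1, 2 and 3 and 13, 12 and 16 in sham replicates 1, 2 and 3. Their weight was far greater in pacing replicate 1, at 61.0% of its numbered reads (95% Wilson interval 59.6 to 62.4). In pacing replicates 2 and 3 it was 18.3% and 18.8%, against 2334 of 9342 reads, 1431 of 5723 reads and 1394 of 6288 reads (22.2%) in sham replicates 1, 2 and 3. Of the 88 entries, 32 reached 1% of the numbered reads of their library, and the other 56 held 6 to 75 reads each.

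In pacing replicate 1, 10 such entries reached 1% and together took 59.1% of its numbered reads. They were novel_27 (819 reads), novel_33 (594), novel_1 (269), novel_17 (265), novel_35 (232), novel_3 (225), novel_25 (189), novel_39 (162), novel_6 (118) and novel_19 (68). The first 2 of these were also its first and second entries overall. In pacing replicate 2 the 6 were novel_69 (624 reads), novel_71 (156), novel_64 (112), novel_42 (104), novel_44 (99) and novel_58 (86). In pacing replicate 3 the 3 were novel_80 (603 reads), novel_87 (420) and novel_93 (101). So the pacing libraries each carried at least 1 entry of over 600 reads that the other 5 libraries listed at 0.

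Sham replicate 1 had 1 such entry, novel_104 with 1964 reads, the most abundant of all single-library entries and 21.0% of its numbered reads. Sham replicate 2 had 6, namely novel_121 (675 reads), novel_115 (322), novel_117 (111), novel_122 (95), novel_126 (75) and novel_118 (73). Sham replicate 3 also had 6, namely novel_136 (419 reads), novel_128 (366), novel_139 (95), novel_142 (89), novel_137 (83) and novel_130 (75). No named miRNA found in 1 library had more than 8 reads.

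The 55 entries in 2 or more libraries fell across both arms. Reads were listed in both arms for 32 entries, in pacing alone for 61 and in sham alone for 50, of which 47 and 41 were the single-library entries described above. Entries in pacing libraries alone held 60.3% of the numbered reads of that arm, and entries in sham libraries alone held 62.7% of those of sham. For named miRNAs the corresponding shares were 0.121% and 0.118%. Of the 29 entries in 2 libraries, 12 were in pacing alone, 8 in sham alone and 9 in both arms; of the 14 in 3 libraries, 2 were in pacing alone, 1 in sham alone and 11 in both.

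Some abundant entries were shared by 1 pair of libraries and at 0 in the other 4. Pacing replicates 2 and 3 alone shared 6 entries with 4818 reads, led by novel_68 with 1125 and 1854 reads. The others included novel_41 with 442 and 299 reads and novel_57, chosen after its values were seen, with 280 and 343 reads. Sham replicates 1 and 2 alone shared 4 entries with 6254 reads, led by novel_95 with 3426 and 1149 reads and novel_103 with 1186 and 375 reads. Pairs across the arms did so too. The entry novel_59 had 483 reads in pacing replicate 2 and 1078 in sham replicate 3, and novel_86 had 333 in pacing replicate 3 and 693 in sham replicate 3.

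One of the most abundant entries, novel_46, crossed the arms in 3 libraries. It had 1722 reads in pacing replicate 2 and was at 0 in pacing replicates 1 and 3, against 728 and 803 reads in sham replicates 1 and 2 and 0 in sham replicate 3. The entry novel_10 had 450 and 19 reads in pacing replicates 1 and 2 and 0 in replicate 3, against 17 reads in sham replicate 1 and 0 in sham replicates 2 and 3. Its level in the libraries that listed it spanned a 32.0-fold range of RPM. Over the 55 entries in 2 or more libraries this range had a median of 2.34-fold, from 1.03-fold for novel_57 to 53.1-fold for novel_79, chosen after its values were seen.

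Only novel_4, novel_5 and novel_12 had reads in all 6 libraries. In pacing replicates 1, 2 and 3, novel_4, named here because it completes this class, had 30, 325 and 84 reads, against 31, 150 and 117 reads in sham. Its highest and lowest RPM differed 12.1-fold, against 5.71-fold for novel_5 and 6.79-fold for novel_12. For the most abundant named miRNAs, cfa-miR-199, cfa-let-7a and cfa-miR-125b, the same range was 2.04-fold, 2.47-fold and 2.94-fold. The 2 entries held in 5 libraries, novel_23 and novel_31, also named to complete their class, were both at 0 in sham replicate 2, the library with the most listed reads.

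Pairs of libraries had little in common in their numbered reads. The part of the numbered reads that 2 libraries had in common, summed over entries as the smaller of the 2 shares, had a median of 14.6% over the 15 pairs, against 86.5% for named miRNAs. It was 41.9% between pacing replicates 2 and 3 and 45.1% between sham replicates 1 and 2, and 6.60 to 24.3% over the other 13 pairs. Every pair had 80.2% or more in common over the named miRNAs. Of the numbered entries of 1 library, the other library of a pair held 15.4 to 46.2%. The pairs share libraries, so these values are a description. For the entries that a pair did share, 6 to 18 of them, Pearson's r of log2 RPM ran from 0.31 to 0.89 across entries, against 0.91 to 0.95 over the shared named miRNAs; entries within a library share its depth and are not independent.

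The comparison of pacing with sham asked which vesicle RNAs differed after 2 weeks of pacing. The entries novel_30 and novel_2 were listed in every pacing library and at 0 in every sham library, and novel_109 showed the reverse. All 143 entries passed the filter on low values, a mean of at least 10 RPM, so it set no numbered entry aside. They were fitted with limma-trend on log2(RPM + 1) together with 171 named miRNAs. For novel_30, novel_2 and novel_109 the arm listed at 0 had no spread, and a listed 0 may stand for a few reads. These 3 entries also passed the filter through the arm that listed them alone. Their limma p-values therefore depend on how low values were listed, and they are not taken as evidence of a difference between the arms. The Benjamini-Hochberg adjusted p was under 0.05 for these 3 entries, 2 higher and 1 lower in pacing, and they were the only calls among the 314 entries tested (0.955% in all, 0.637% higher and 0.318% lower). With edgeR's quasi-likelihood test on the reads 0 of the 143 passed, with 8 at an unadjusted p under 0.05 with TMM scaling and 14 with library totals. DESeq2 called 12, among them novel_30 and novel_2, and gave no adjusted p for 83.

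In pacing, novel_30 had 46, 223 and 653 reads in replicates 1, 2 and 3, which is 3783, 17540 and 40524 RPM. In sham it was listed at 0 in all 3 libraries. Its 3 pacing values spanned a 10.7-fold range, and the difference on the log2(RPM + 1) scale was 13.76 ± 1.41 (SE; limma, adjusted p = 2.56e-04). The size of such a difference is set by the pseudocount and is no estimate of a fold change. The call was lost without pacing replicate 2 (adjusted p = 0.234), without pacing replicate 3 (adjusted p = 0.229) and with edgeR (adjusted p = 0.427 with TMM scaling).

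In pacing, novel_2 was scarcer, with 13, 23 and 144 reads in replicates 1, 2 and 3, and it was listed at 0 in all 3 sham libraries. Its 13 reads in pacing replicate 1 lay close to the lowest value listed for any numbered entry there, which was 10 reads. In pacing replicate 2 the lowest such value was 9 reads and the median of the listed entries 30. Its log2(RPM + 1) difference was 11.34 ± 2.07 (SE; limma, adjusted p = 0.0261). The call was lost when any of pacing replicates 1, 2 and 3 or sham replicates 1 and 2 was left out (adjusted p = 0.433, 0.741, 0.505, 0.0551 and 0.0655), with the replicate number as a block (adjusted p = 0.0997), with a filter at a mean of 100 RPM (adjusted p = 0.0802) and with edgeR.

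The entry novel_109 was listed at 0 in all 3 pacing libraries. In sham it had 89, 266 and 793 reads in replicates 1, 2 and 3, which is 6053, 10568 and 62113 RPM, with the highest value in replicate 3. Its log2(RPM + 1) difference was -13.95 ± 1.37 (SE; limma, adjusted p = 2.56e-04). Leaving out sham replicate 1, 2 or 3 ended the call (adjusted p = 0.0757, 0.0965 and 0.207), as did edgeR (adjusted p = 0.427 with TMM scaling). DESeq2 gave no adjusted p for it.

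**Figure D5:**
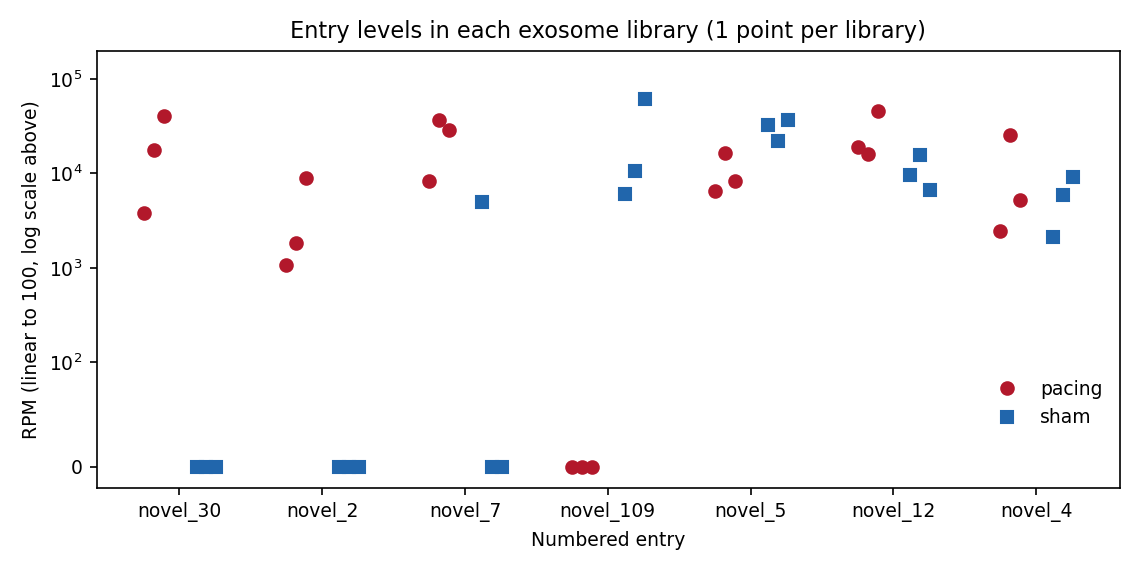
Level of 7 numbered entries in each exosome library (RPM, vertical axis, linear to 100 and logarithmic above), with the 3 pacing libraries (red circles) left of the 3 sham libraries (blue squares) for each entry. For novel_30, novel_2 and novel_109 all libraries of 1 arm lie at 0, and for novel_5 and novel_12 the arms lie side by side without overlap.

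The 2 arms did not overlap for 7 of the 143 entries (4.90%), against 4.14% of all 314 entries tested. Beside the 3 called entries these were novel_7, novel_24, novel_12 and novel_5, none of which passed. In pacing, novel_7 had 101, 471 and 463 reads in replicates 1, 2 and 3, against 74 reads in sham replicate 1 and 0 in sham replicates 2 and 3 (limma, adjusted p = 0.254). It passed without sham replicate 1 (adjusted p = 0.00497). In pacing, novel_24 had 26, 25 and 31 reads, against 0, 0 and 11 reads in sham (adjusted p = 0.411), and it passed without sham replicate 3 (adjusted p = 0.0137).

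The remaining 2 were listed in every library, so their differences do not rest on zeros. In pacing, novel_5 stood at 6497, 16439 and 8378 RPM in replicates 1, 2 and 3, against 32304, 22327 and 37127 RPM in sham. Its means were 10438 ± 5281 RPM (SD, n = 3) in pacing and 30586 ± 7548 RPM (SD, n = 3) in sham, a log2(RPM + 1) difference of -1.63 ± 0.46 (SE; limma, adjusted p = 0.309). For novel_12 the values were 18998, 15888 and 45737 RPM in pacing and 9657, 15732 and 6736 RPM in sham, with pacing replicate 2 just above sham replicate 2. Its means were 26874 ± 16409 RPM (SD, n = 3) in pacing and 10709 ± 4589 RPM (SD, n = 3) in sham, a log2(RPM + 1) difference of 1.25 ± 0.52 (SE; limma, adjusted p = 0.616). Both differences kept their direction under every scaling and with any 1 library left out.

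The other entries among the 8 of smallest p in each direction were listed in 2 to 4 libraries and overlapped between the arms. They did not pass with all libraries (limma, adjusted p = 0.616 for each), although all but novel_48 passed in another fit given below. Higher by arm mean in pacing were novel_68 and novel_41, given above, and novel_26, with 34, 12 and 21 reads in pacing against 0, 0 and 44 in sham. Lower by arm mean in pacing were novel_95 and novel_103, given above, and novel_107, at 0 in pacing against 189, 0 and 233 reads in sham. So were 3 entries listed in all sham libraries and 1 pacing library. The first, novel_77, had 0, 0 and 123 reads in pacing against 169, 141 and 44 in sham. The second, novel_51, had 0, 27 and 0 reads in pacing against 32, 52 and 24 in sham. The third, novel_48, had 0, 13 and 0 reads in pacing against 14, 8 and 23 in sham. DESeq2 called novel_95 (adjusted p = 2.64e-13), novel_68 (adjusted p = 0.00361), novel_103 (adjusted p = 0.0125), novel_41 (adjusted p = 0.0179) and novel_107 (adjusted p = 0.0391). Each of these was listed at 0 in a whole arm, so these p-values also depend on how low values were listed. For novel_95 the DESeq2 log2 difference was -26.9, against -11.1 with limma and -13.97 with edgeR (adjusted p = 0.427 with TMM scaling). It is no estimate of a fold change. The other DESeq2 calls, beside novel_30 and novel_2, were novel_57, novel_67, novel_99, novel_102 and novel_130, of which novel_102 and novel_130 were each listed in 1 library. With limma and pacing replicate 1 left out, novel_68 (adjusted p = 0.00484) and novel_41 (adjusted p = 0.0241) passed, as did novel_57. That library listed each of them at 0. Without sham replicate 3, novel_95 (limma, adjusted p = 0.0137), novel_103 (adjusted p = 0.0248) and novel_26 (adjusted p = 0.0255) passed. The entry novel_77 passed without pacing replicate 3 (limma, adjusted p = 0.0139), and novel_51 passed without pacing replicate 2 (limma, adjusted p = 0.0206). In each of these the library left out was the 1 in its arm that differed from the other 2 in whether the entry was listed.

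Over the whole set, 79 entries were higher and 64 lower in pacing, against 176 and 138 of the 314 entries tested. An unadjusted limma p under 0.05 was found for 17 of the 143 numbered entries and 2 of the 171 named miRNAs, or 19 (6.05%) of all tested. The classes differed in zeros and in lowest listed values as given above, and the part of that in these counts was not tested. The median log2(RPM + 1) difference was 3.18 for numbered entries and 0.10 for all tested. That median is a value of the size that a single library gives when the other 5 are at 0, which ran from 2.63 to 5.68 in absolute value over the 88 single-library entries. With a pseudocount of 10 RPM it was 2.08.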

How the data were processed

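The deposited exosome table is named TPM but holds RPM: each column sums to the same total over its listed reads, with no length term, and every value is a whole multiple of the smallest in its column. Dividing by that step returned whole reads for 321 of 321 values in each of the 6 libraries (tolerance 1e-06 reads); sham replicate 1 has 93 values within 20 steps, fewer than the 100 asked of such a check, and its reads were recovered in the same way. Trimmomatic 0.36, STAR 2.5.3a and featureCounts are named in the submitters' processing notes, and the labels give 1 library protocol for all 12 samples, a stranded mRNA kit. For the miRNA reference, the caller of the numbered entries and its minimum: not given in the sources used here.

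Differences are pacing minus sham. Entries with a mean of at least 10 RPM were tested with limma-trend (limma 3.58.1, R 4.3.3) on log2(RPM + 1), adjusted by Benjamini-Hochberg over all 314 entries at 0.05. Alternatives on recovered reads used edgeR 4.0.16 and DESeq2 1.42.0. Library values were compared by exact permutation or sign-flip tests in Python 3.11.15, and shares carry 95% Wilson intervals. Entries were named by a rule: the 15 of largest mean share, the 3 leading each library, the 8 of smallest p in each direction, and single-library entries of at least 1% of the numbered reads. The limma fit was tried on simulated counts with set fold changes. That simulation set no lowest listed value and no entry present in 1 arm alone, so it did not test calls of that kind. Its spread between libraries was a set value not taken from these data, and only entries in a middle range of reads were changed. It therefore does not show how the fit behaves at the spread seen here. The permutation, sign-flip and thinning code was checked on small inputs with known answers. The edgeR and DESeq2 fits were not tried in this way. The members and lists were chosen with earlier results of these data known.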

Additional observations from a re-analysis of the deposited data

How the results depend on the processing

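The count of numbered entries past the threshold was 3. It was 0 with edgeR under either scaling and 12 with DESeq2, which gave no adjusted p for 83 of the 143, and 1 to 6 when a library was left out, with 5 without pacing replicate 1, 1 without sham replicate 2 and 6 without sham replicate 3. It was 2 with a replicate block and with a filter at 100 RPM, and 3 under the pseudocount, scaling, weight and threshold alternatives; the cause was not tested. Deviations of same-numbered libraries correlated at -0.00263, 0.000377 and 0.0486, which cannot show whether the samples were paired. The block leaves the arm differences of library values unchanged by arithmetic. An exact sign-flip test on 3 pairs cannot go below p = 0.25, so with the block none of those comparisons could pass 0.05. Median differences of all entries were 0.20 scaled to named miRNA reads, 0.15 by median of ratios and -0.20 by quantiles, against 0.10.

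With 1 library left out, the difference in numbered share ran from -6.87 to 13.5 points, that in the share of the leading entry from -7.29 to 2.48 points, and that in entries held, numbered minus named, from -76.8 to -75.3, where an exact sign-flip test on 5 libraries cannot go below p = 0.0625. That last difference was -76.1 entries (-37.1 points as a share of each class). With 10 reads required of both classes it was -13.5 entries (-2.20 points as a share of each class). The difference in effective number between classes was -5.65 (exact sign-flip test, unadjusted p = 0.03125) as the exponential of the Shannon entropy and -2.18 with 10 reads also required. The share and 10-read alternatives were added after the data were seen. The lowest listed value limits what a listed 0 can show. No numbered value lay under 6 reads, while named miRNAs of the same libraries were listed from 1 read.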
